A study of Drosophila melanogaster with 8 samples.

Results

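Described here are 5 protein-coding genes of Drosophila melanogaster that are known by a CG number alone, CG7214, CG10383, CG17127, CG3777 and CG5953, and for each of which at least 1 probe set was higher in female heads under short days. For CG5953 it was the dimmer of 2, and the brighter one, which represents the gene, was not called. They were measured by 7 probe sets, groups of short probes that together read 1 transcript or several, out of 18769 tested probe sets, and they are 5 of the 11982 genes with a probe set of their own. The members were chosen on the contrast described here: CG7214, CG10383, CG17127 and CG3777 for the size of their rise in short days, and CG5953 because its dimmer probe set passed a threshold on adjusted p. Their differences between photoperiods are therefore given as a description, with no test.

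The short-day group held 4 samples of heads from Canton_S females, a wild-type laboratory strain, kept from within hours of emergence for 12 days at 12.5 °C under 10 h of light and 14 h of dark. The long-day group held 4 samples treated alike except for 16 h of light and 8 h of dark. All flies shared the strain, the sex, the temperature and the collection 4 h after lights-on, and no transgene or mutation was involved. The methods of the study give fewer hours of light for the short day and a wider collection window. For expression profiling they also give a slightly lower temperature. The labels are followed here. Neither source says whether the samples came from separate vials, so the spread between them may be partly technical.

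Female flies of this species that are kept cool can enter reproductive dormancy, or diapause, in which yolk is not laid down and resources are kept for survival. Short days raise the share of females that do so. In the first days of adult life the fly also completes its outer skeleton, in which cuticle proteins are laid down on chitin fibres. The sources used here give no name and no function to any of the 5 genes. What can be said of them rests on their values, on the genes that behaved most like them and on the genes that lie beside them.

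Values are on the log2 scale, so a difference of 1 is a doubling. They range over the table between 2.15, the lowest value given to a probe set with no signal above background, and 15.52. A level cannot be compared between probe sets, because each binds its own probes. Only differences between arrays within a probe set are described. In whole heads, a change in the number of cells of a type and a change in RNA per cell cannot be told apart.

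Array medians lay between 8.44 and 8.52 over 9107 probe sets with a mean of at least 4. Normalization brings the medians together, so they do not show how alike the arrays were. Over those probe sets r between arrays was 0.983 to 0.996. Short-day replicate 3 held transcripts of thoracic muscle. There, fln (flightin, a protein of flight muscle filaments) was at 11.71 and at most at 2.69 on the other arrays, and TpnC4, a troponin of flight muscle, was at 10.36 and at 2.15 on all others. The array also stood apart in fat body and cuticle genes. Fbp2 and Fbp1, fat body proteins, were at 7.06 and 6.26 there and at most at 2.17 and 2.22 elsewhere, and 5 cuticle genes lay over 1 above all other arrays, among them Acp65Aa at 8.88 (at most 3.81 elsewhere) and Cpr92F at 5.93 (2.15). The difference of each member is therefore also given without that array.

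Among genes with a probe set of their own, each represented by its brightest, CG7214 showed the largest rise of any differentially expressed gene, here a gene with an unadjusted limma p under 0.01. A single called probe set, shared by several genes and so given no gene here, rose more (2.98-fold). At this threshold 518 of 18769 probe sets were called in either direction, where about 188 would pass if none changed. At a limma adjusted p under 0.05 only 1 passed, the dimmer probe set of CG5953, and CG7214 did not. The single probe set of CG7214 read 11.45, 11.88, 11.26 and 11.23 in short-day replicates 1 to 4, against 10.63, 9.99, 10.04 and 9.70 in long-day replicates 1 to 4. Every short-day array lay above every long-day array, with 0.60 between the lowest short-day and the highest long-day value. The mean was 11.46 ± 0.30 in short days and 10.09 ± 0.39 in long days (SD, n = 4 each), a 2.58-fold difference (log2 difference 1.37, SE 0.24). CG7214 was also the most variable of the members. Its spread within photoperiods, 0.35, was wider than that of 96.3% of probe sets of mean 4 or more. Short-day replicate 2 and long-day replicate 1 were the high arrays of their groups. The difference was 1.43 without short-day replicate 3.

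CG10383 was also read by 1 probe set. Its values were 8.61, 8.73, 8.97 and 8.70 in short days and 7.92, 8.16, 8.25 and 7.72 in long days. The groups did not overlap and lay 0.36 apart. The short-day arrays were close together, and the long-day arrays fell into a higher pair, replicates 2 and 3, and a lower pair, replicates 1 and 4. The mean was 8.75 ± 0.16 in short days and 8.01 ± 0.24 in long days, or 1.67-fold (log2 difference 0.74, SE 0.14). The highest value was that of short-day replicate 3, the array with thoracic muscle transcripts, and without it the difference was 0.67.

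CG17127, likewise with 1 probe set, read 8.71, 8.94, 8.52 and 8.79 in short days against 7.91, 8.05, 7.75 and 8.33 in long days. The groups did not overlap, but the gap was the narrowest of the 5 rises, 0.19, between short-day replicate 3 and long-day replicate 4. The mean was 8.74 ± 0.17 in short days and 8.01 ± 0.25 in long days, or 1.66-fold (log2 difference 0.73, SE 0.15). Its order of arrays was unlike that of CG10383, since short-day replicate 3 was its lowest short-day array and the highest of CG10383, and long-day replicate 3 was its lowest and again the highest of CG10383. Without short-day replicate 3 its difference was 0.80.

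CG3777 was represented by a pair of probe sets. The brighter read 7.49, 7.27, 7.54 and 7.27 in short days and 6.76, 6.87, 6.38 and 6.68 in long days. The groups lay 0.40 apart, with long-day replicate 3 below the rest. The mean was 7.39 ± 0.14 in short days and 6.67 ± 0.21 in long days, or 1.64-fold (log2 difference 0.72, SE 0.12), and the difference was 0.67 without short-day replicate 3. The dimmer probe set gave no measurable signal in either photoperiod. It stood at 2.20 in short-day replicate 4 and at 2.15 on each of the other arrays, so it carries no information on a change. RefSeq lists 5 transcripts for CG3777, and which of them each probe set reads was not determined.

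CG5953 was also represented by a pair of probe sets, and they differed in the size of the change. The dimmer read 7.89, 7.84, 7.74 and 7.88 in short days and 7.24, 7.16, 7.16 and 7.25 in long days. It was the tightest of the rises, with 0.49 between the groups and a spread within photoperiods of 0.06, which only 7.55% of probe sets of mean 4 or more undercut. That narrow spread entered the choice of the gene. The mean was 7.84 ± 0.07 in short days and 7.20 ± 0.05 in long days, or 1.56-fold (log2 difference 0.64, SE 0.04), and without short-day replicate 3 the difference was 0.67.

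The brighter probe set of CG5953 read 14.21, 14.36, 14.29 and 14.28 in short days and 14.11, 13.96, 14.16 and 14.29 in long days. The groups overlapped, since long-day replicate 4 lay above short-day replicates 1, 3 and 4. Long-day replicate 2 was the low array. The mean was 14.28 ± 0.06 in short days and 14.13 ± 0.14 in long days, or 1.11-fold (log2 difference 0.15, SE 0.07, and 0.15 again without short-day replicate 3). This probe set lies near the top of the scale, and whether that affects the size of its difference was not tested. RefSeq lists 4 transcripts for CG5953, and whether the probe sets read different ones was not determined.

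**Figure D1:**
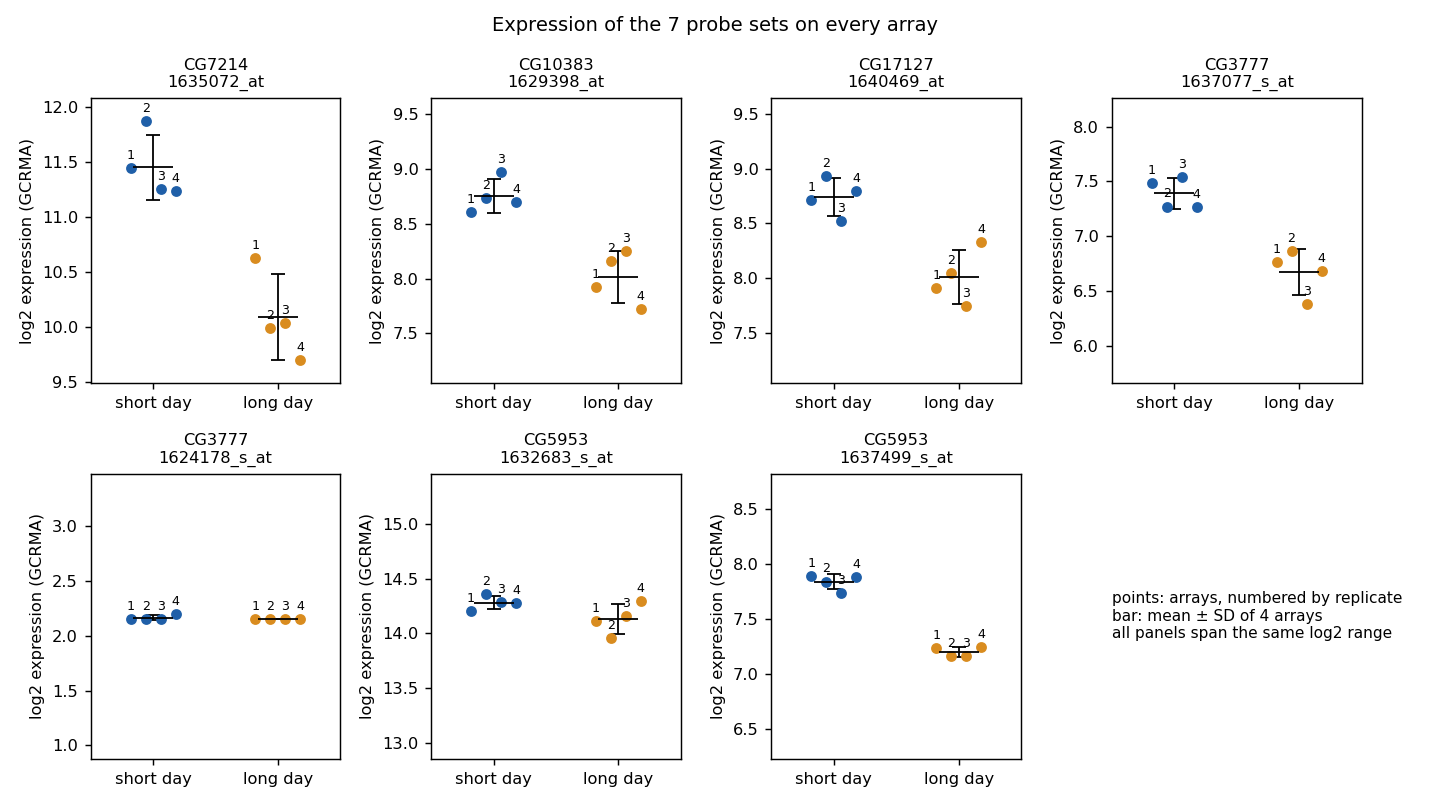
Log2 expression (GCRMA) of the 7 probe sets of the 5 genes on each array, with short-day arrays in blue at the left and long-day arrays in orange at the right of each panel; points are numbered by replicate, and the bars give the mean and SD of 4 arrays. The groups are apart in 5 probe sets, by 0.60 in CG7214 and 0.19 in CG17127 at the extremes, they overlap in the brighter probe set of CG5953, and the dimmer probe set of CG3777 lies at the lowest value.

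Of the 7 probe sets, 5 were higher in short days at an unadjusted p under 0.01 in limma, the threshold of the study, and none was lower. Over all tested probe sets 1.52% were higher and 1.24% lower by the same rule, 2.76% in all. The 4 short-day values lay above the 4 long-day values in the same 5 probe sets, as in 3.22% of all probe sets, 6.41% of those of mean 4 or more and 3.87% of all genes by their brightest probe set. Since the members were chosen on this contrast, nothing is read from these counts. The call rule asks for a small spread as well as a large change. It left out many larger differences. Of 7 genes with a larger difference than CG7214 none was differentially expressed, all 7 overlapped between photoperiods, and in 6 short-day replicate 3 was the highest short-day array. For CG3777 there were 46 genes with a larger difference, of which 8 were differentially expressed. In 27 of the other 38 the highest short-day array was again replicate 3, and 26 of the 38 had a smaller difference than CG3777 once that array was left out.

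Among differentially expressed genes the rises of CG7214, CG10383, CG17127 and CG3777 ranked 1, 7, 8 and 9. Between CG7214 and CG10383 stood Cpr100A, a cuticle protein (2.37-fold), verm, a chitin-modifying protein of the extracellular matrix (1.97-fold), TwdlE and TwdlT, cuticle proteins of the Tweedle family (1.91-fold and 1.69-fold), and Jhe, the esterase that degrades juvenile hormone (1.76-fold). Of 5 such genes, 3 encode structural cuticle proteins. The list of such proteins holds 109 of all 11982 genes, and 27 of the 7348 genes of mean 4 or more. The 5 were taken for their rank by rise, so nothing is read from this count. Among genes known by a CG number alone, the next below CG3777, at 0.72, were CG17211, at 0.61 (8.27 ± 0.22 in short days and 7.65 ± 0.20 in long days), and CG40486, also at 0.61 (11.57 ± 0.13 and 10.96 ± 0.16). The dimmer probe set of CG5953, at 0.64, lay above both, but the brighter one represents the gene.

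**Figure D2:**
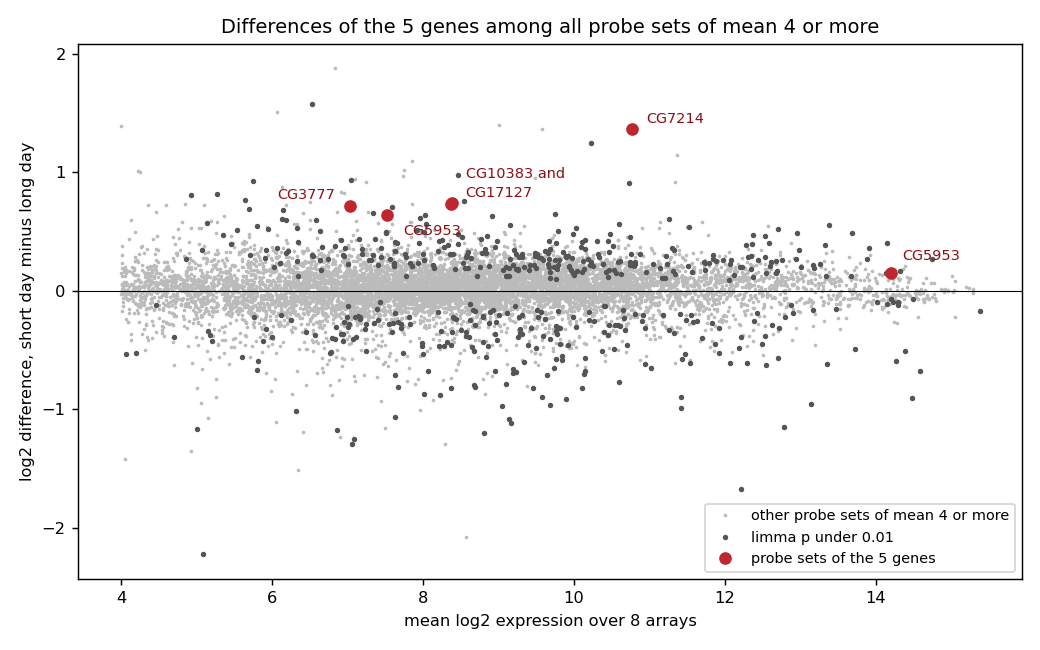
Log2 difference, short day minus long day, against the mean log2 expression over 8 arrays for the 9107 probe sets of mean 4 or more; dark points had a limma p under 0.01, and red points are the 6 measurable probe sets of the 5 genes. CG7214 lies at 1.37 and the red points labelled CG10383, CG17127, CG3777 and CG5953 at the left lie between 0.64 and 0.74, while the second of CG5953, at the right, lies at 0.15.

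Rises were a small share of the class to which the 5 genes belong. Of 5209 genes known by a CG number alone 59 were higher (1.13%) and 74 lower (1.42%) in short days, 2.55% in all. Of 6773 genes with a name 156 were higher (2.3%) and 128 lower (1.89%), 4.19% in all. A mean of 4 or more was reached by 47.5% of the CG-number genes and 72.0% of the named genes. Among genes of mean 4 or more, 2.35% of the CG-number genes and 3.20% of the named genes were higher, and 2.95% and 2.63% were lower. These shares are a description, and the difference between the classes was not tested.

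To ask which genes had the most similar profile, the profile of each member over the 8 arrays was centred on its own mean and set against those of 7343 other genes of mean 4 or more. The measure is the root mean square distance in log2 units, where 0 is an identical profile and the distance to a flat line gives the scale. It includes the photoperiod difference that chose the members, so that other rising genes are favoured. The distance of the deviations from the photoperiod means leaves that difference out. It is still part of the distance by which companions were picked, so small values are favoured there too and are a description.

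The profile of CG7214 was closest to those of genes for cuticle and chitin proteins. Cpr100A lay at a distance of 0.16, where a flat line lay at 0.75. It read 10.81, 11.13, 10.84 and 10.62 in short days and 9.94, 9.52, 9.48 and 9.49 in long days. It shared with CG7214 the high short-day replicate 2 and the high long-day replicate 1, and within photoperiods the pair lay 0.15 apart where a flat line lay 0.30 from CG7214. Next were Lcp65Ac, of a family of larval cuticle proteins, at 0.31, and verm at 0.37. Lcp65Ac averaged 6.57 ± 0.37 in short days and 5.69 ± 0.39 in long days. It narrowly missed the threshold (limma unadjusted p = 0.0136, adjusted p = 0.397). Within photoperiods it lay 0.19 from CG7214. There verm was no closer to CG7214 than a flat line was, at 0.32.

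CG17127 was closest to TwdlT, at a distance of 0.10, where a flat line lay at 0.41. TwdlT read 8.84, 9.16, 8.84 and 8.84 in short days and 8.13, 8.17, 8.01 and 8.35 in long days. Both had long-day replicate 3 as the lowest and long-day replicate 4 as the highest long-day array, and within photoperiods they lay 0.10 apart, against 0.18 for a flat line. The clock transcription factor vri followed at 0.15, with 11.79 ± 0.19 in short days and 11.25 ± 0.11 in long days. The third was Drep2, a protein related to DNA fragmentation factors, at 0.17. It narrowly missed the threshold (log2 difference 0.63, limma unadjusted p = 0.0159, adjusted p = 0.405). Within photoperiods vri lay 0.11 and Drep2 0.16 from CG17127.

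CG10383 and CG3777 shared a pair of companions. Obp83g, an odorant-binding protein, lay 0.17 from each of them, and CG1674 lay 0.19 from CG10383 and 0.18 from CG3777. Obp83g averaged 8.35 ± 0.19 in short days and 7.71 ± 0.17 in long days, and CG1674 10.04 ± 0.15 and 9.53 ± 0.07. The third companion of CG10383 was Mlc1, a myosin light chain, at 0.20, with 13.95 in short-day replicate 3 and at most 13.65 on the other short-day arrays. The closest to CG3777 was Gasp, a chitin-binding protein, at 0.15, which averaged 10.88 ± 0.22 in short days and 10.32 ± 0.20 in long days. Within photoperiods the companions lay 0.15 to 0.18 from CG10383, where a flat line lay at 0.17, and 0.13 to 0.17 from CG3777, where it lay at 0.15. The likeness of these profiles was thus mostly in the difference between photoperiods.

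For CG5953 the 2 probe sets had no companion in common. The dimmer was closest to CG43740 (0.10), to vri (0.12) and to NKAIN, a membrane protein named for its interaction with the sodium pump (0.12). All 3 were higher in short days at p under 0.01, and all lay farther from it within photoperiods (0.06 to 0.11) than a flat line did (0.05). The brighter was closest to CG7646, to Mppe, a metallophosphoesterase, and to X11L, a neuronal adaptor protein, at 0.03 to 0.04, where a flat line lay at 0.12. None of these 3 was differentially expressed, with limma adjusted p between 0.660 and 0.748. They shared with it the low long-day replicate 2 and the high short-day replicate 2, at 11.10 and 11.55 for CG7646. Within photoperiods they stayed 0.03 to 0.04 from it, against 0.09 for a flat line.

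**Figure D3:**
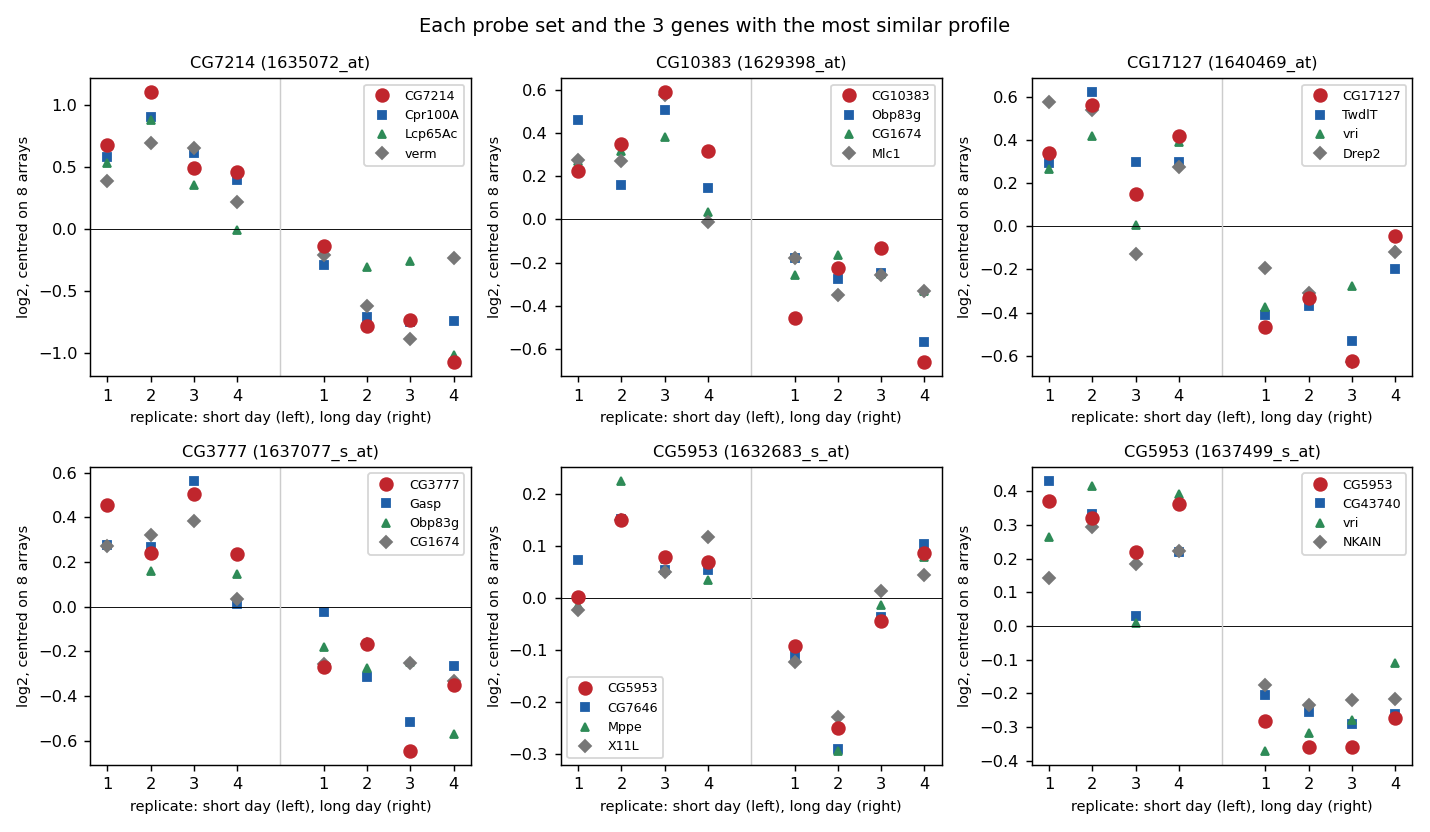
Log2 expression centred on the mean of 8 arrays for each of the 6 measurable probe sets (red circles) and its 3 closest genes, with short-day replicates 1 to 4 left and long-day replicates 1 to 4 right of the grey line; the vertical scales differ. Cpr100A follows CG7214 at a distance of 0.16 and TwdlT follows CG17127 at 0.10, with the same highest array in each photoperiod.

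Of the 18 places named in this way, 3 went to genes of the cuticle list, Cpr100A, Lcp65Ac and TwdlT. That list held 27 of the 7343 genes searched. Rising genes were favoured for these places, so nothing is read from the count. The list of structural cuticle proteins held 109 measured genes, 62 of them at or near the lowest value and 27 of mean 4 or more. In short days 4 were higher and none was lower at p under 0.01, where 1.79% of all genes were higher. The smallest p was that of Cpr100A, with 10.85 ± 0.21 in short days and 9.61 ± 0.22 in long days (adjusted p = 0.115), followed by TwdlT (adjusted p = 0.133). The median log2 difference of the 27 was 0.14, against 0.02 over all genes of mean 4 or more, and 19 of the 27 had a difference above 0. In short-day replicate 3, Acp65Aa and Cpr97Eb of the 27 stood far above the other arrays. Acp65Aa reached a mean of 4 only through that array, at 8.88 there and at most 3.81 elsewhere. Without that array, and with the same 27 genes kept, the median was 0.13 and 18 were above 0. There 3 cuticle genes were called.

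Set against each other, the members did not share 1 profile. The closest pair was CG17127 and the dimmer probe set of CG5953, at 0.17, followed by CG3777 and that probe set, also at 0.17. Within photoperiods these pairs still lay 0.16 and 0.17 apart. There a flat line lay 0.18 from CG17127, 0.15 from CG3777 and 0.05 from that probe set of CG5953. Their closeness was thus mostly in the difference between photoperiods, which chose the members. CG7214 was at least 0.47 from every other member, and 0.30 to 0.37 within photoperiods. CG10383 and CG17127, nearly equal in the size of their rise, lay 0.34 apart. Within photoperiods their distance was 0.33, so nearly all of it lay in the order of the arrays. No array was high in all members: short-day replicate 2 was above its group mean in 4 of the 6 measurable probe sets, the most of the short-day arrays, and short-day replicates 1 and 4 in 2 each.

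To see whether the rises extended to adjacent genes, the 3 annotated protein-coding genes on each side of each member were examined, in the gene order of the RefSeq annotation of Drosophila Release 6. Of 30 neighbours 25 had a probe set of their own and 17 had a mean of 4 or more. At an unadjusted p under 0.01, 1 was higher and 1 lower in short days, with 3.48% of all genes called in either direction. The median log2 difference was 0.02 among the 17, as over all genes of mean 4 or more. The highest difference among them was 0.54, that of CG7203 beside CG7214.

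CG7214 lies next to Acp1, an adult cuticle protein, which shares its only probe set with CG31904, the gene beyond it, so that their RNA cannot be told apart. That probe set read 11.69, 12.01, 12.73 and 11.32 in short days and 12.62, 10.29, 10.29 and 9.96 in long days. Long-day replicate 1 was among the highest arrays and the other long-day arrays lay below every short-day array. The means, 11.94 ± 0.60 in short days and 10.79 ± 1.23 in long days, did not differ beyond that spread (log2 difference 1.15, limma adjusted p = 0.758). The next gene on the other side, ATPsynGL, was near the lowest value, at 2.17 in short days and 2.16 in long days. Beyond it, CG7203 read 11.46, 11.89, 12.25 and 11.44 in short days and 12.23, 10.98, 10.66 and 11.03 in long days. In 3 of the 4 long-day arrays it lay below every short-day array, but in long-day replicate 1, which was also the high long-day array of CG7214, it was nearly as high as in the highest short-day array. Its means, 11.76 ± 0.39 in short days and 11.23 ± 0.69 in long days, did not differ beyond that spread (log2 difference 0.54, limma adjusted p = 0.830). CG13796, on the side of Acp1, was higher in short days, at 7.34 ± 0.08 against 7.04 ± 0.13 in long days, with no overlap (1.24-fold, limma adjusted p = 0.313).

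CG10383 overlaps CG10336, which was near the lowest value in both photoperiods, and lies beside CG10338, at 8.14 ± 0.11 in short days and 8.27 ± 0.12 in long days (limma adjusted p = 0.801). The next gene, CG10341, was the only neighbour of the 25 that was called lower. It averaged 6.88 ± 0.09 in short days and 7.16 ± 0.09 in long days, 0.822 of the long-day level, with no overlap (limma adjusted p = 0.281).

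CG17127 lies between CG6724 and CG31869, and neither was called. CG31869 averaged 6.81 ± 0.18 in short days and 6.49 ± 0.07 in long days (limma adjusted p = 0.396), and CG6724 6.61 ± 0.08 in short days and 6.83 ± 0.19 in long days (limma adjusted p = 0.601). The 2 neighbours thus had differences of opposite sign, 0.32 and -0.22, on either side of the rise of 0.73. CG31869 missed the unadjusted threshold of the calls only narrowly. Every short-day array of CG31869 lay above every long-day array, with a gap of 0.07, whereas the groups of CG6724 overlapped.

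CG3777 is a long gene that overlaps 4 of its neighbours in the annotation. Of these ewg (erect wing, a transcription factor of neurons and muscle) stood at 10.15 ± 0.20 in short days and 9.96 ± 0.15 in long days (limma adjusted p = 0.814), and CG13375 stood at 4.06 ± 0.14 in short days and 4.14 ± 0.12 in long days (limma adjusted p = 0.854). Whether the probes of CG3777 also read RNA of an overlapping gene was not tested. CG5953 lies between Tpr2, a co-chaperone, which was level at 10.10 ± 0.07 in short days and 10.11 ± 0.07 in long days, and CG31816, which was at the lowest value on every array.

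**Figure D4:**
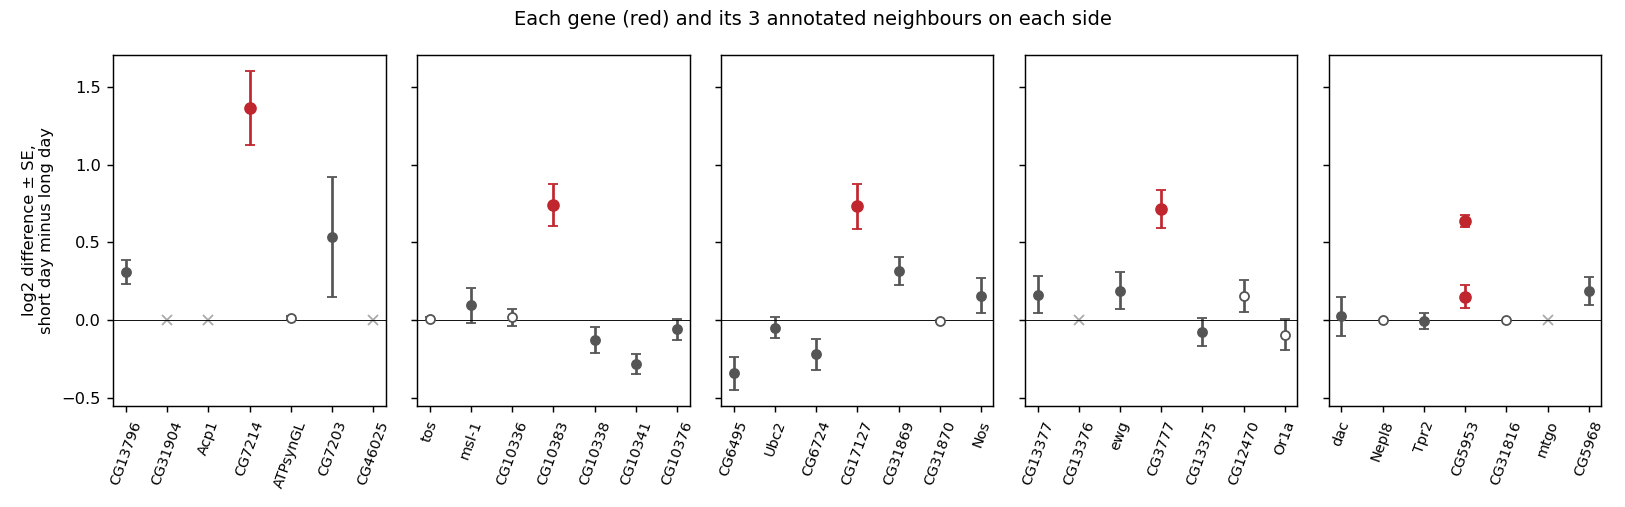
Log2 difference with its standard error, short day minus long day, for each of the 5 genes (red, probe sets of mean 4 or more) and its 3 annotated neighbours on each side in gene order; open circles have a mean under 4, and grey crosses mark genes with no probe set of their own. CG7214 stands at 1.37 beside CG7203 at 0.54, and the neighbours of CG17127 lie between -0.34 and 0.32.

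Genes for MADF domain proteins, a family of DNA-binding factors, were taken as a further list beside CG5953, although the sources used here give that gene no domain. Of its 7 measured genes 1 was lower and none higher, Mes2 at 7.98 ± 0.21 in short days and 8.45 ± 0.13 in long days (limma adjusted p = 0.321), and hng1, with the next smallest p, was not called (limma adjusted p = 0.665). Their median difference was -0.03. Among all genes, 1.69% were lower and 1.79% higher in short days at p under 0.01.

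Several tissue markers also differed between photoperiods, and their part in the rise of the members was not tested. Over all genes, 1.79% were higher and 1.69% lower in short days at p under 0.01. Of 10 measured sarcomere genes 6 rose and none fell at p under 0.01, led by Obsc and Mlc2, and their summed level (log2 of the summed linear values) was 15.67 to 16.01 in short days and 15.28 to 15.52 in long days. Without short-day replicate 3 the short-day range was again 15.67 to 16.01. Fat body transcripts were lower: of 8 genes 5 fell and none rose, among them Yp2, a yolk protein, and fit, a peptide of the female fat body, with a summed level over 6 genes of 16.72 to 17.03 in short days and 17.32 to 17.38 in long days. Neuronal genes were higher in part, with Snap25 and unc-13 called among 7 and a summed level of 14.41 to 14.64 in short days and 14.15 to 14.42 in long days.

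For the other lists no gene was called among 6 of glia, 6 of photoreceptors, 8 of haemocytes and 4 of the thoracic flight and jump muscles. The summed levels of the first 3 overlapped between photoperiods, with 14.31 to 14.50 in short days and 14.43 to 14.57 in long days for glia, 16.48 to 16.72 and 16.46 to 16.55 for photoreceptors, and 12.73 to 13.03 and 12.61 to 12.93 for haemocytes. All 5 measured ovary markers were at or near the lowest value on every array. The thoracic muscle markers had the largest differences of these lists, with a median of 1.73 over the 4 genes, and 1 array made most of it. The summed level of Act88F and Act79B reached 14.07 in short-day replicate 3, against 11.23 to 11.84 on the other short-day arrays and 10.94 to 11.35 in long days.

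Whichever array was left out, the rises were of similar size, a description only, since the members were chosen on these arrays. The rise of CG7214 lay between 1.23, without short-day replicate 2, and 1.55, without long-day replicate 1. In that array the gene was highest among the long days. The dimmer probe set of CG5953 moved least, between 0.62 and 0.67. CG10383 and CG17127 moved in opposite ways: without long-day replicate 4 the difference of CG10383 was 0.64 and that of CG17127 was 0.84, and without long-day replicate 3 it was 0.82 for CG10383 and 0.65 for CG17127. The brighter probe set of CG5953 ranged between 0.09 and 0.20.

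**Figure D5:**
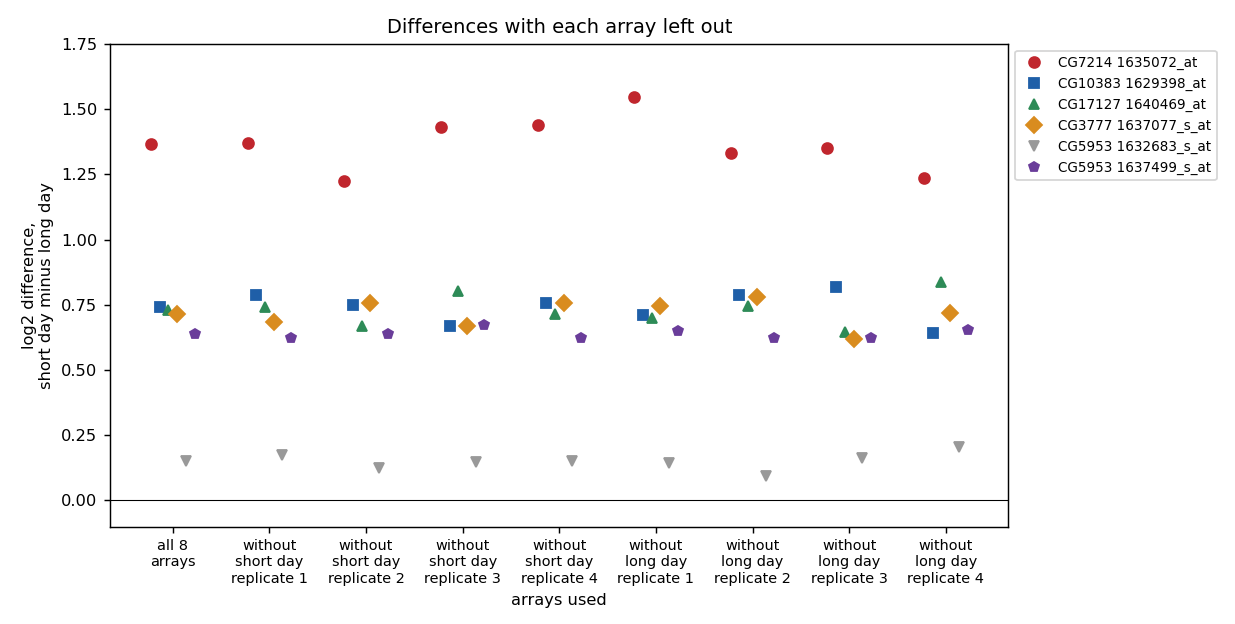
Log2 difference, short day minus long day, of the 6 measurable probe sets with all 8 arrays and with each array left out in turn. CG7214 lies between 1.23 and 1.55, the other rises between 0.62 and 0.84, and the brighter probe set of CG5953 (grey) between 0.09 and 0.20.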

How the data were processed

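Heads of females were hybridised to Affymetrix Drosophila Genome 2.0 arrays. The authors deposited log2 expression values made with GCRMA (version not given in the sources used here), which corrects background by probe sequence, quantile-normalizes the arrays and summarises each probe set. Of 18952 probe sets 183 controls were left out. Genes were named from the platform annotation, where 13647 probe sets had 1 gene, of which 13544 were found in RefSeq by Entrez number. A gene was represented by its brightest probe set. No coordinates are given, and the planned promoter and protein descriptions were not made because no sequences were used here.

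Short day minus long day was fitted on all probe sets with limma 3.58.1 in R 4.3.3 (lmFit, eBayes, two-sided, no block; called at the study's unadjusted p under 0.01), and the steps were tested on simulated data. Adjusted p-values are Benjamini-Hochberg over all 18769. The members and lists were chosen with earlier results of these data known. Named besides the members were the 3 closest profiles per member, called and adjacent neighbours, the 2 genes of smallest p per list, genes ranked between the members, and markers that moved with an array. CG7203, CG17211 and CG40486 were named after their values were seen. As alternatives, the fit was repeated with a replicate block, after leaving out probe sets under a mean of 4 or of 6, and with a second quantile normalization, median centring, a trend and robust variance, array weights, no moderation, a floor of 3, each array left out, and short-day replicate 3 left out with long-day replicate 2. The precision is limited by 4 arrays per group. Scan dates were not used, so no batch was tested.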

Additional observations from a re-analysis of the deposited data

Results flagged for a closer look

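In the dimmer probe set of CG3777, 1 array of each group stood apart from 3 others at the lowest value: short-day replicate 4 at 2.20 and long-day replicate 3 at 2.15, which differed from the rest only beyond the second decimal. The rate of about 1 in 20 groups that chance gives for such gaps does not hold here, where the 3 other arrays were tied.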

How the results depend on the processing

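The 6 measurable probe sets of the 5 genes kept the direction of their difference in all 18 alternatives, and the 5 rises stayed within 1 SD of the values given. All 5 passed p under 0.01 in each alternative except that CG3777 did not with the replicate block. The members were chosen on these arrays, and some alternatives, such as the filters, leave a difference unchanged by construction. Nothing is therefore read from this steadiness. The labels do not say what same-numbered arrays shared. The deviations of the pairs correlated with r of 0.01, -0.23, -0.14 and 0.17. Those of short-day replicate 3 and long-day replicate 2, which differ in number, correlated with r of 0.34. Whether same-numbered arrays shared handling was not tested, and these correlations cannot settle it. With the replicate block 181 probe sets were higher and 119 lower, against 286 and 232, and 0 neighbours and 77 CG-number genes were called, against 2 and 133. With the trend and robust variance model 78 probe sets were higher and 102 lower, and 0 neighbours, 0 MADF genes and 59 CG-number genes were called. After median centring 369 were lower, and the dimmer probe set of CG3777 had a difference of -0.0083. With the filters at a mean of 4 and of 6, 4 neighbours and 7 cuticle genes were called in each, against 2 and 4, and 95 and 141 probe sets passed an adjusted p of 0.05, against 1. The cause was not tested. Leaving out single arrays, or short-day replicate 3 with long-day replicate 2, gave 179 to 320 higher and 144 to 248 lower probe sets (the fewest when long-day replicate 3 was left out for the higher and short-day replicate 1 for the lower), 0 to 2 neighbours, 2 to 5 cuticle genes (2 without long-day replicate 2 or short-day replicate 1), 0 to 1 MADF genes and 96 to 167 CG-number genes. With single arrays left out, Mes2 was called only without short-day replicate 3, and 1 neighbour in place of 2 was called without any single array but short-day replicate 4. The closest genes of CG7214 and CG3777 were the same 3 with a mean absolute distance or a minimum mean of 6, and those of the dimmer CG5953 probe set shared 1 of 3 with the mean absolute distance.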
